A study of Mus musculus with 2 samples.

Results

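The lymphoid chemokine axis consists here of 10 genes: the chemokines Cxcl13, Ccl19, Ccl21a and Ccl21b, the receptors Cxcr5 and Ccr7, the lymphotoxin genes Lta, Ltb and Ltbr, and the complement receptor Cr2. They were taken by gene name from the non-control spots of 2 arrays, out of 28786 genes or transcripts represented there. Of the 10 genes, 8 had spots under these names, with 10 probes and 19 spots of 43379, and Cxcr5 was found under its older name Blr1. Ccl21a and Ccl21b had none. The set was selected on the signals of these same spots, because Cxcl13 had the largest difference between the tumours that was judged reliable, so its difference is given as a description and was not tested.

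Tumour 1 and tumour 2 grew from RMS3, named in the labels as a PRMS cell line, after injection of 1000000 cells in 200 µl of buffer under the skin. The hosts were male C57BL/6J mice, and tumours were removed 2 weeks after injection, although the protocol also uses the word metastatic for them. Both tumours thus share line, host strain, sex and time, no allele or agent is named, and the data hold neither uninjected tissue nor cultured cells. They form 1 group of 2 samples from 1 line, and no p-value can be given for a difference with 1 tumour on each side. Each tumour's total RNA was read on a separate Agilent array with 1 dye. RNA of the line and of any host cells in the tumour was measured together, and fewer cells of a type cannot be told apart from less RNA per cell.

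Cxcl13, also called BLC, is a chemokine that draws B cells into lymphoid follicles through its receptor Cxcr5. Ccl19 and Ccl21 draw T cells and mature dendritic cells into the neighbouring T cell zones through Ccr7. Lymphotoxin, made of Lta and Ltb chains on lymphocytes, engages Ltbr on stromal cells, which then produce these chemokines by way of the non-canonical NF-kB pathway, and Cr2 is found on B cells and on the follicular dendritic cells that present antigen to them. Follicular dendritic cells and other reticular stromal cells are the classical sources of Cxcl13, and macrophages can make it too.

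The scanner software flagged 1055 non-control spots as outliers on array 1 and 43 on array 2, and 27.8% of the spots lay within 2 rows and columns of such a flag on array 1 or of a bright local background on array 2. Values are given without those spots unless stated, as log2 of the processed signal relative to the 75th percentile of the array. Among all spots 62.3% on array 1 and 66.1% on array 2 were called well above background, and the lowest level with that call among the spots used was -5.78 on array 1 and -6.19 on array 2. No cell type is labelled beyond the line. Of 10 skeletal muscle lineage genes 8 were detected on both arrays, among them the muscle transcription factor Myog (-2.24 in tumour 1 and -2.11 in tumour 2), while the early factor Myf5 was detected on neither. Of the 8, 2 were higher and 6 lower in tumour 1, with a median difference of -0.35. The intermediate filament gene Des differed by -1.24 and the embryonic myosin gene Myh3 by -1.07, which was -0.85 with all unflagged spots, and Myod1 differed by 0.35.

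Cxcl13 gave a bright signal in tumour 1 and lay near the detection limit in tumour 2. Its single spot gave a processed signal of 861 ± 86.2 in tumour 1, against 25.1 ± 3.88 in tumour 2, where ± is the scanner software's own error of that spot. On the scaled log2 axis this corresponds to levels of -0.21 in tumour 1 and -5.17 in tumour 2, a mean of -2.69 ± 3.51 (SD, n = 2). The difference was 4.96 (log2, tumour 1 minus tumour 2), a 31.1-fold higher level in tumour 1. The level in tumour 2 lay about 1 log2 unit above the lowest one called on that array, so the size of the fold depends on a dim spot.

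The raw measurements of the Cxcl13 spot showed the same contrast before any background correction. They come from the same single spot whose signal led to the choice of Cxcl13, so they describe that spot and are not independent support. The mean pixel brightness was 914 in tumour 1 and 82.8 in tumour 2, and the median pixel was at 898.5 in tumour 1 and 82 in tumour 2. The spot covered 62 pixels on array 1 and 63 on array 2, of which 3 and 1 were set aside as outlier pixels, and the local background was 46 on array 1 and 49 on array 2. Mean and median pixel thus lay close together on both arrays, and the local backgrounds were alike. The 31 other detected spots within 3 rows and columns of it had a median difference of 0.01, with a range of -1.50 to 1.12, so the spots around it were centred on no difference. The spot also lies in the lower rows, away from the flagged bands, and on the scale of those rows it differed by 4.95.

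The error of a single spot can be read from probes printed several times. Over 175 such probes with 1249 spots away from flags, the spot differences between the arrays had a standard deviation of 0.23 (log2) around their probe's mean. Only 1 of these spots deviated by at least 1 log2 unit from its probe's median towards tumour 1, by 1.64, and 12 deviated as far towards tumour 2, with a largest deviation of -3.43. The 16 dim probes among them, below -4 on array 2, had a standard deviation of 0.33. Since Cxcl13 was chosen for its difference, these values describe the noise of a spot and are no test of it. They give the technical error within an array and do not include the spread between tumours.

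**Figure D1:**
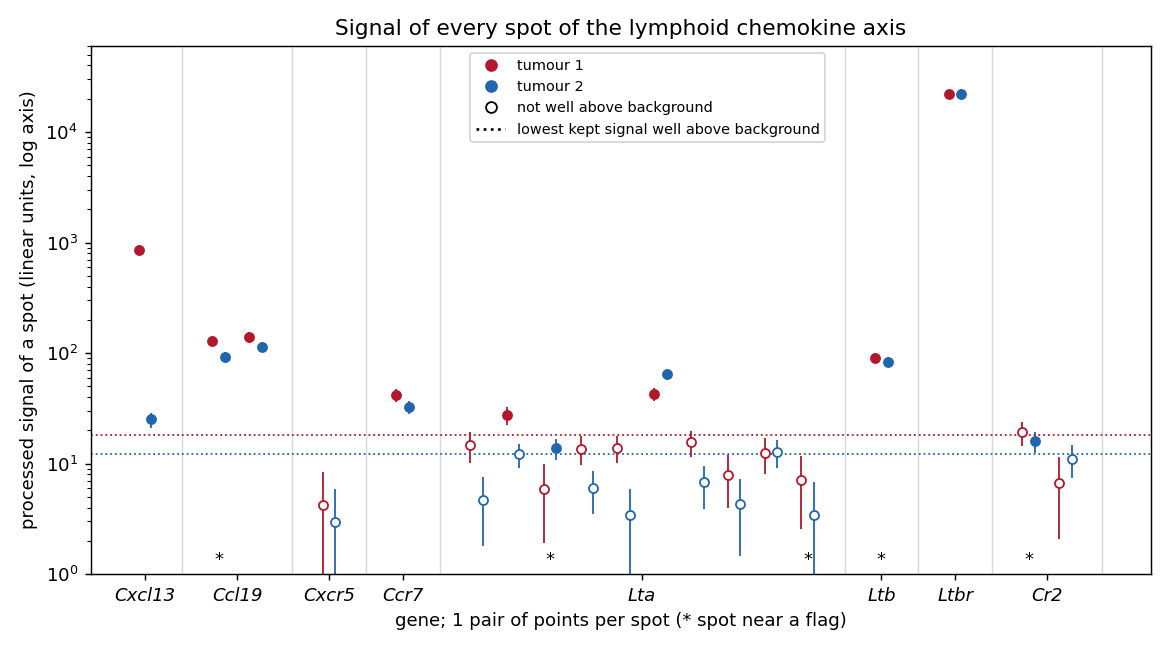
Processed signal of each of the 19 spots on a log axis, tumour 1 in red left of tumour 2 in blue, with the scanner software's error as bars, open circles for spots not well above background, dotted lines at the lowest signal called in the spots used, and asterisks under spots near a flag. Heights can be compared within a spot but not between genes. Cxcl13 is at 861 in tumour 1 and 25.1 in tumour 2, whereas both points of Ltbr lie at the same height.

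The stretch before the transcription start of Cxcl13 is shown because it is the gene that carries the difference, and that of Ccl19 because this other homeostatic chemokine was measured and did not differ by 2-fold. Both are the 250 bases upstream of the RefSeq start in GRCm38.p6, 5′ to 3′ on the gene's strand: chr5:95956689-95956938 on the plus strand for Cxcl13 and chr4:42756366-42756615 on the minus strand for Ccl19.
Cxcl13: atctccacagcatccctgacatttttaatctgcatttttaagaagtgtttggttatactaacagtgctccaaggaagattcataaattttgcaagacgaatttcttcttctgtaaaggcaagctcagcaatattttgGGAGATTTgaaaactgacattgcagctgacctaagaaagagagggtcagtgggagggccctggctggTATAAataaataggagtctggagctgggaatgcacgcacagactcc
Ccl19: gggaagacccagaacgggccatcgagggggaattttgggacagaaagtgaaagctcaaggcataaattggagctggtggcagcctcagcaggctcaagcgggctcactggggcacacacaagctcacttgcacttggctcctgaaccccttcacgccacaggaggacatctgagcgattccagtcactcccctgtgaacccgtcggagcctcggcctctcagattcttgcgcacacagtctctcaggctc
Capitals mark matches to the motifs searched. The core GGAGANTT is a kB variant tied to RelB dimers and known from the Cxcl13 promoter itself, so its presence there was known when it was searched for. It was searched on both strands and TATAA on the gene's strand. Cxcl13 held the core at bases 113 to 106 before the start and TATAA at bases 46 to 42, and these do not overlap. Among all 32851 RefSeq stretches of this length 3.99% held the core and 16% held TATAA. The classical NF-kB consensus, searched on both strands and present in 7.25% of them, matched neither gene. In Ccl19 none of these letters occurred in the window. These matches describe sequence only, and the arrays did not measure binding.

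Ccl19, the other chemokine of the axis with a probe, was detected in both tumours at similar levels. Its probe away from flags had a signal of 140 ± 14.5 in tumour 1 and 114 ± 11.8 in tumour 2. The level was -2.83 in tumour 1 against -2.99 in tumour 2, differing by 0.16, which is below the spot error of 0.23. The other probe, near a flag, gave 130 in tumour 1 and 92.6 in tumour 2 and a difference of 0.35 on the same scale. The RefSeq table lists a further protein-coding gene, Gm2023, with Ccl19 as a synonym, and which copy the probes detect was not analysed here.

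Ccl21a and Ccl21b have no spot under those names, but the array carries 1 probe for their relative Ccl21c, which was looked at after the members' values were known. It was well above background in both tumours, with signals of 403 ± 40.5 in tumour 1 and 1726 ± 173 in tumour 2. Its spot lay near a flag, and the 23 detected spots around it had a median difference of -0.29 with a range of -2.82 to 0.96. The Ccl21 genes are closely related copies, so this signal may come from more than 1 of them, and no difference is drawn from it.

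The receptors showed little signal. Cxcr5, the receptor for Cxcl13, had a signal of 4.22 ± 4.22 in tumour 1 and 2.96 ± 2.97 in tumour 2, not well above background in either. Cxcl13 was thus bright in tumour 1 without a detected signal of its receptor. Ccr7, the receptor for Ccl19 and Ccl21, was detected at 41.9 ± 5.83 in tumour 1 and 32.6 ± 4.24 in tumour 2. Its levels of -4.57 in tumour 1 and -4.79 in tumour 2 differed by 0.22, below the spot error. Neither of the 2 probes of Cr2 was detected on both arrays. The probe away from flags read 6.74 in tumour 1 and 11.1 in tumour 2, and the other read 19.2 in tumour 1 and 16.0 in tumour 2, where alone it was called well above background.

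The lymphotoxin genes that could be measured lay close together in the tumours. Ltbr, the receptor on stromal cells, was bright in both tumours, with a signal of 22000 ± 2200 in tumour 1 and 22018 ± 2202 in tumour 2. Its scaled level was 4.47 in tumour 1 against 4.61 in tumour 2, differing by -0.14, below the spot error. Ltb, the membrane-anchoring chain of the ligand, had its only spot near a flag, with 91.1 ± 9.86 in tumour 1 and 83.4 ± 8.73 in tumour 2. On the scale used for the other members this is a difference of -0.01. With all unflagged spots Ltb was detected on both arrays and differed by 0.18, where the median difference of all genes was also 0.18.

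Lta, the soluble chain, was printed 10 times and was mostly below detection. Its signals ran from 5.93 to 42.3 in tumour 1, with a median of 13.9, and from 3.44 to 64.3 in tumour 2, with a median of 6.42. Only 2 of the 10 spots were well above background in tumour 1, and 2 in tumour 2. A single spot was the brightest on both arrays, at 42.3 in tumour 1 and 64.3 in tumour 2, against at most 27.4 in tumour 1 and 13.7 in tumour 2 for the others. The signal was higher in tumour 1 at 7 of the 10 spots, with spot differences between -1.35 and 1.88, so the tumours overlapped and no direction is given for Lta.

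Of the 10 members, 4 were thus measured on both arrays away from flags, namely Cxcl13, Ccl19, Ccr7 and Ltbr, and 1 of these 4, Cxcl13, had a signal at least 2-fold higher in tumour 1. Among all 13945 genes measured in the same way, 3.87% reached 2-fold towards tumour 1, 2.59% towards tumour 2 and 6.45% in either direction. With all unflagged spots Ltb joined the measured members, and 1 of these 5, again Cxcl13, was 2-fold apart, beside 6.44% of 16812 genes towards tumour 1, 5.15% towards tumour 2 and 11.6% in either direction. The split of calls moved with the scaling, from 539 towards tumour 1 and 361 towards tumour 2 to 807 and 261 without scaling. The median difference of all genes was 0.01 with a standard deviation of 0.55, and with all unflagged spots it was 0.18. Since the members were chosen for the difference of Cxcl13, nothing is read from these counts. Towards tumour 1 no gene of these differed more than Cxcl13, a place that follows from the same choice, while 3 genes differed more towards tumour 2.

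**Figure D2:**
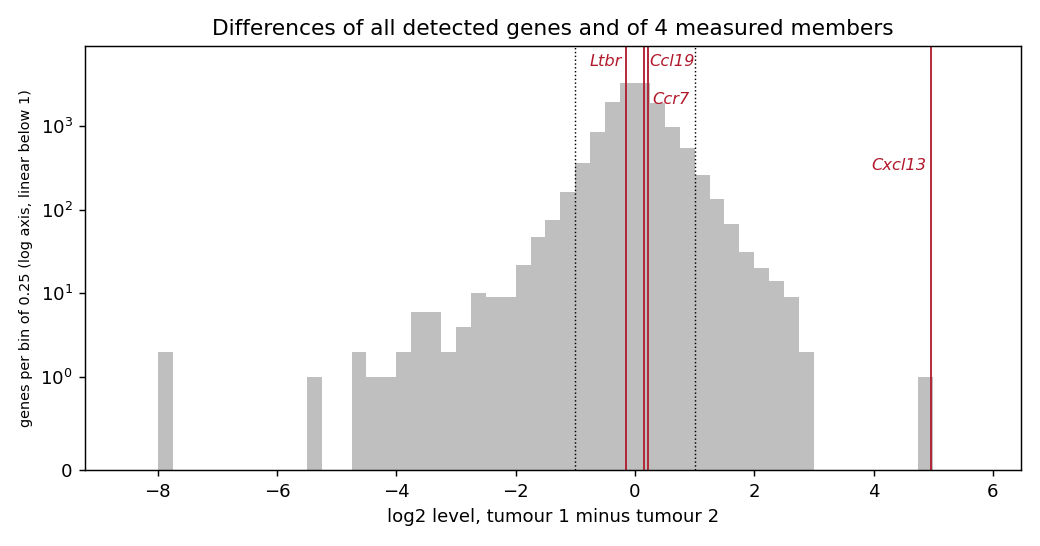
Number of genes per bin of 0.25 in log2 difference (tumour 1 minus tumour 2) over the 13945 genes detected on both arrays away from flags, on a log axis that is linear below 1, with red lines at the 4 measured members and dotted lines at 2-fold. Cxcl13, chosen for its difference, lies at 4.96, and Ccl19, Ccr7 and Ltbr lie within 0.22 of 0.

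Only genes with an established RefSeq symbol and all detected probes going the same way were considered here. Among them, the genes whose difference lay nearest to that of Cxcl13 on the same side were olfactory receptors. By the absolute gap between differences over the 2 tumours, these were Olfr661 (2.84), Olfr1198 (2.81), Olfr295 (2.74), Olfr266 (2.62) and Olfr741 (2.59), each with 1 probe. Whether these probes detect RNA of the named receptors was not tested. The smallest gap to Cxcl13 was 2.12 log2 units, which follows in part from the choice of Cxcl13 by its difference.

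Among the chemokine ligands most measured ones were somewhat higher in tumour 1. The array carries 37 of them, of which 21 were detected in both tumours away from flags, and 18 of these were higher in tumour 1, beside 51.6% of all 13945 genes, with a median difference of 0.32. Ccl5, counted among these at 0.32, was at -1.99 with all unflagged spots. Besides Cxcl13, 3 were at least 2-fold higher in tumour 1. These were the neutrophil attractant Cxcl5 (-0.67 in tumour 1 against -2.26 in tumour 2, differing by 1.59), the eosinophil attractant Ccl11 (-1.90 in tumour 1 against -3.45 in tumour 2, differing by 1.55) and the monocyte attractant Ccl8 (1.15 in tumour 1 against -0.30 in tumour 2, differing by 1.46). Ccl20, which acts through Ccr6 on lymphocytes and dendritic cells, was the only one of the 21 at least 2-fold lower in tumour 1, at -5.02 in tumour 1 against -3.95 in tumour 2, differing by -1.07. With all unflagged spots its single spot was the same but the scale shifted, giving -0.87, below 2-fold.

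**Figure D3:**
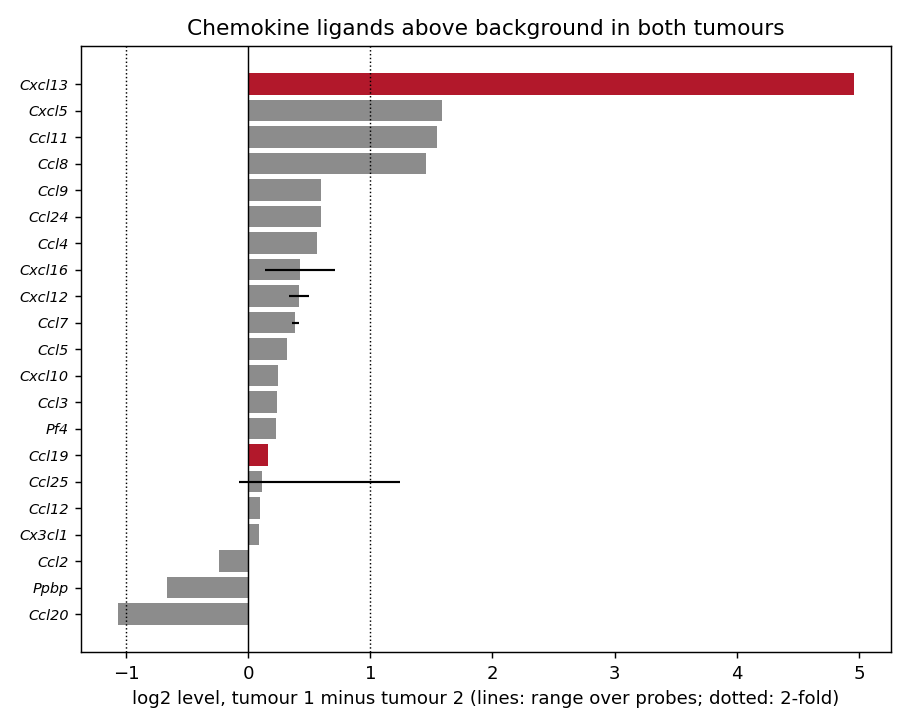
Log2 difference (tumour 1 minus tumour 2) of the 21 chemokine ligands detected on both arrays, with members of the axis in red, black lines for the range over probes where a gene has several, and dotted lines at 2-fold. Cxcl13, chosen for its difference, lies at 4.96, the next ligand, Cxcl5, at 1.59, and Ccl19 at 0.16.

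Among 18 other homeostatic chemokines and receptors, 8 were detected on both arrays, and their median difference was 0.35. Cxcl12, the stromal chemokine that retains haematopoietic cells, was 0.42 higher in tumour 1, with 2 probes at 0.34 and 0.50. The scavenger receptor Ackr4, which removes Ccl19 and Ccl21, was 0.66 higher in tumour 1. Cxcr4, the receptor of Cxcl12, was the only one beyond 2-fold beside Ccl20. Its probe had a signal of 164 in tumour 1 against 2116 in tumour 2, differing by -3.83. The 22 detected spots around it had a median difference of -0.47 and reached down to -4.22. The other Cxcr4 probe, itself flagged on array 1, read 5400 in tumour 1 against 5209 in tumour 2, differing by -0.09. The 2 probes therefore disagree, and no direction is given for Cxcr4.

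Genes of the non-canonical NF-kB pathway, listed with other ligands and receptors of the lymphotoxin and TNF family, were mostly detected, with small differences. Of the 16 listed genes 13 were detected, 7 higher and 6 lower in tumour 1, with a median difference of 0.02 and none at least 2-fold apart. Relb, the NF-kB subunit that this pathway releases, lay at 2.52 in tumour 1 against 2.50 in tumour 2, differing by 0.02. Nfkb2, which encodes its partner, lay at 0.93 in tumour 1 against 1.37 in tumour 2, differing by -0.45. Tnfsf14, another ligand of Ltbr also called LIGHT, differed by 0.21, and Tnf itself was not above background on either array. Birc3, an inhibitor of apoptosis in this pathway, was at 0.47 but at -1.33 with all unflagged spots, so no direction is given for it.

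Markers of the B cells that Cxcl13 attracts were mostly not above background. Of 12 B cell markers 2 were detected on both arrays, Cd79b (-4.96 in tumour 1 and -4.85 in tumour 2) and the adaptor Blnk, which differed by -0.32, and 7 were above background on neither, among them Ms4a1, Cd79a, Cd22 and Pax5. Cd37 was called in tumour 2 alone. The others had no spot away from flags. The summed level of the 2 detected markers was 8.61 in tumour 1 and 10.7 in tumour 2, in multiples of the 75th percentile signal. Such sums weight bright probes most and serve only to set the tumours side by side. Of 7 plasma cell genes 2 were detected, the immunoglobulin heavy chain listed as Igh-6 at -4.93 in tumour 1 and -4.47 in tumour 2, and the transcription factor Prdm1 at 0.63 in tumour 1 and 0.44 in tumour 2.

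Factors and receptors for lymphocyte survival gave a mixed picture. Of 8 listed genes 4 were detected. Il7r, the interleukin-7 receptor chain, was at -2.65 in tumour 1 against -3.73 in tumour 2, differing by 1.08 from the only detected one of its 3 probes. Its undetected probes gave 0.38 and -0.84. Tnfsf13b, which encodes the B cell survival factor BAFF, had a median difference of 1.13, but its 2 probes gave 2.24 and 0.03, so that only 1 of them showed the difference. Its receptors Tnfrsf13b, Tnfrsf13c and Tnfrsf17 were above background on neither array. The stromal factor Il7 (0.04) and Il6 (-0.59) differed by less than 2-fold.

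T cell and follicular helper T cell genes were dim. Of 13 T cell markers 4 were detected, with a median difference of 0.11 and none at least 2-fold apart, and their summed level was 0.20 in tumour 1 and 0.19 in tumour 2. Cd3e lay at -5.01 in tumour 1 and -4.77 in tumour 2, while Cd4, Cd8a and Foxp3 were above background on neither array. Of 8 follicular helper genes, which mark the T cells that assist B cells in follicles, 2 were detected. The costimulator Icos was 1.21 higher in tumour 1 (-4.10 in tumour 1 and -5.31 in tumour 2) and its undetected probe showed 0.99, and the checkpoint receptor Pdcd1 was 0.69 higher in tumour 1. Bcl6 and Btla had no spot away from flags, Tox2 was not found on the array, and Cd40lg, Il21 and Sh2d1a were above background on neither array.

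Most listed genes of the cell types known to make or surround Cxcl13 were detected in both tumours. Their detection does not show that such cells were present, since RNA of the line was measured too. Of 12 markers of follicular dendritic and reticular stromal cells 9 were detected, with a median difference of 0.32. Fcer2a, which encodes CD23, was above background on neither array, and Cr2 was not detected on both, as given above. The complement gene C4b was 1.03 higher in tumour 1 (-1.93 in tumour 1 and -2.96 in tumour 2), while Mfge8 and Clu were -0.48 and -0.79 apart. Their summed level was 354 in tumour 1 and 476 in tumour 2. Of 13 macrophage markers 9 were detected, with a median of 0.06 and a summed level of 14.7 in tumour 1 and 13.5 in tumour 2. The scavenger receptor Marco was 1.22 higher in tumour 1 and Adgre1 0.64 higher, while C1qa differed by 0.06 and Cd68 by -0.22. The receptor Csf1r was not above background at its spots away from flags, and with all unflagged spots it was detected on both arrays and differed by -0.20.

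Some MHC class II genes, which are expressed by antigen-presenting cells, were higher in tumour 1. Of 10 listed genes 6 were detected, 5 of them higher in tumour 1 and 3 at least 2-fold, Cd74 by 1.16, H2-Eb1 by 1.14 and H2-Aa by 1.13. H2-Ab1 differed by 0.28, with probes from -0.01 to 0.68, and the class II transactivator Ciita by -0.19. H2-DMa had no spot away from flags and differed by -0.57 with all unflagged spots. The median was 1.04, against 0.01 for all genes, and the summed level was 1.88 in tumour 1 and 0.95 in tumour 2. Of 12 dendritic cell markers 7 were detected, with Itgax 1.04 and Cd86 0.69 higher in tumour 1 but Fscn1 at -0.69 and Irf8 at -0.65. Their summed level was 1.52 in tumour 1 and 1.86 in tumour 2. The fibroblast genes Mfap5 (1.95) and Dcn (1.12, with probes at 0.57 and 1.67) were higher in tumour 1 too, while the median of the 8 detected fibroblast markers was 0.31 and their summed level was 109 in tumour 1 and 99.0 in tumour 2. The part of any of these cell types in the difference of Cxcl13 was not tested.

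**Figure D4:**
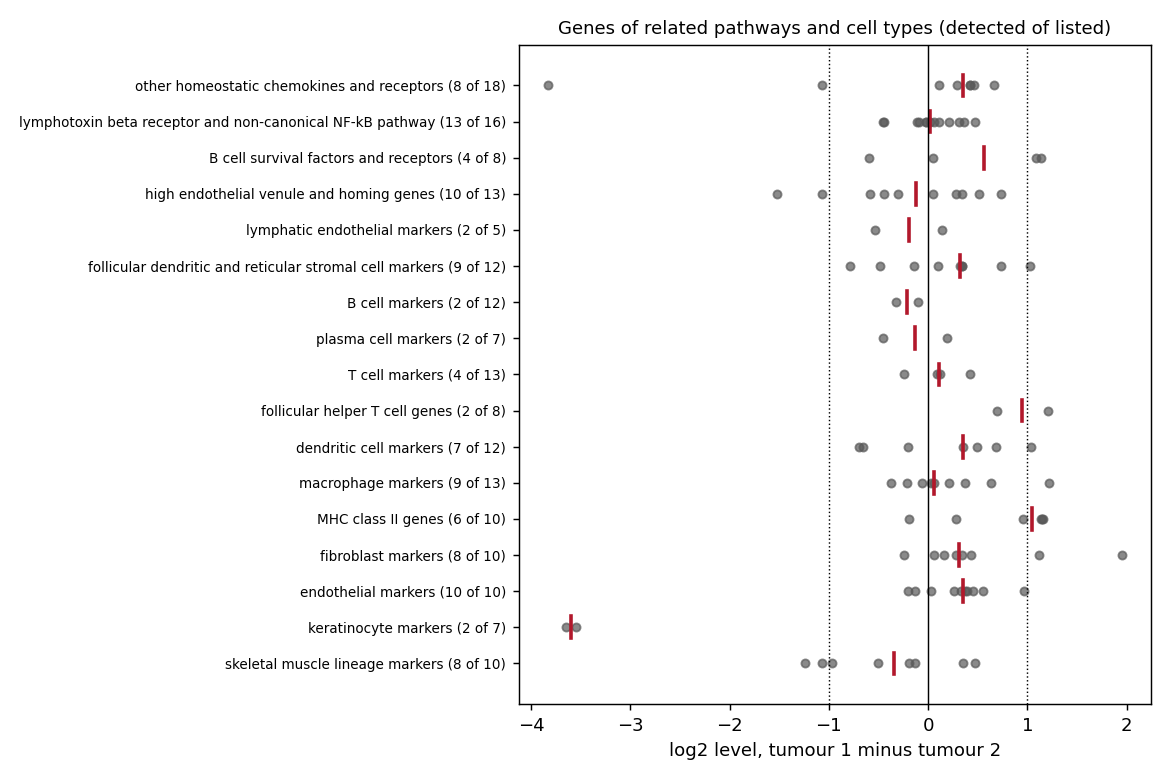
Log2 difference (tumour 1 minus tumour 2) of each detected gene in the 17 gene lists set beside the axis, with red bars at list medians, dotted lines at 2-fold, and the number detected of those listed in brackets. MHC class II genes have a median of 1.04, genes of the lymphotoxin pathway centre on 0.02, and the single point at -3.83 is the Cxcr4 probe that its other probe contradicts.

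High endothelial venules are the vessels through which lymphocytes enter lymphoid tissue. Of 13 genes of these venules and of homing 10 were detected, 5 higher and 5 lower in tumour 1. Their median difference was -0.13. The mucosal addressin Madcam1 was above background on neither array, and Glycam1 had no spot away from flags. Chst4 was detected on both arrays, though dim, at -5.50 in tumour 1 and -5.55 in tumour 2. Ackr1 was 0.73 higher in tumour 1, with probes at 0.64 and 0.83. Selp, which encodes P-selectin on activated endothelium and platelets, was printed 10 times, and its 9 spots away from flags ran from 227 to 277 in tumour 1 and from 597 to 685 in tumour 2. The tumours did not overlap at these spots, which are technical repeats, and the mean difference was -1.52 with a range of -1.59 to -1.45. The related Sele differed by -1.07. With all unflagged spots its single spot was at -0.87, below 2-fold, through the shift in scale alone. Of 5 lymphatic endothelial markers Lyve1 (0.14) and Flt4 (-0.53) were detected, and Prox1, the lineage's defining transcription factor, was above background on neither array.

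The difference of Cxcl13 kept its direction under each processing setting that retained its probe. It ran from 3.28 under normexp background correction with an offset of 50, to 5.16 with all unflagged spots, a 35.7-fold difference. Ccl19 and Ccr7 remained below 2-fold in each setting that measured them, and Ltbr ran from -0.19 to 0.06, with a positive value only with all unflagged spots. For Cxcl13 and Ltbr that setting used the same single spot and only shifted the scale. The positive and significant call, no filter on dim probes and the brightest probe left Cxcl13 at 4.96, since they change only which probes are used. Every setting reread the single Cxcl13 spot that was chosen for its difference, so their agreement is not independent support.

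**Figure D5:**
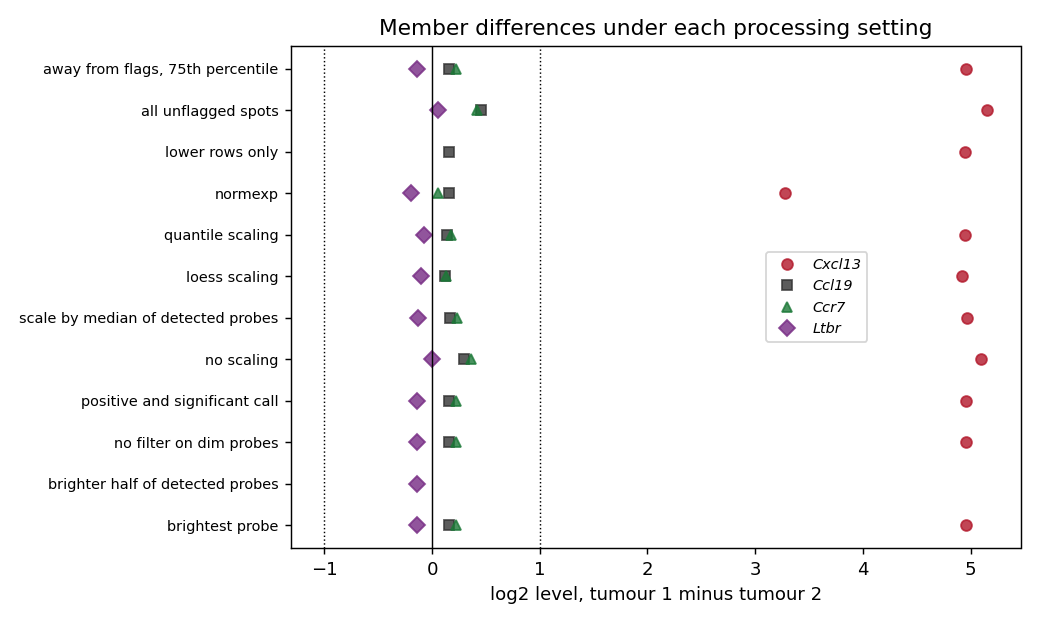
Log2 difference (tumour 1 minus tumour 2) of the 4 measured members under the setting used here (top row) and 11 alternatives, with dotted lines at 2-fold. Cxcl13, read from the same single spot each time, stays between 3.28 and 5.16 wherever its probe was kept. Ccl19, Ccr7 and Ltbr stay between -0.19 and 0.45.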

How the data were processed

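Per the labels' protocols, 1.0 µg of total RNA was labelled with Cy3. Per the file headers the deposited intensity values come from Agilent Feature Extraction 9.1.3.1 (the submitters' processing notes give 8), which subtracted background and detrended the signal within each array. The deposited value table repeats that processed intensity at 45018 spots, unscaled and uncentred, with medians of 63.3 for tumour 1 and 67.5 for tumour 2. A deposited p-value of each spot against its background was not used.

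Left out were flagged outlier spots, spots within 2 rows and columns of an array 1 flag, and spots as near to 1 of 11 spots with a local background over 100 on array 2. Log2 signals were centred on each array's 75th percentile and averaged over repeat spots. Detection required 50% or more of a probe's spots well above background on each array. A gene's difference is the median of its detected probes, saturated ones set aside. RefSeq of GRCm38.p6 gave updated names for the 55.7% of probes whose accession matched, and promoters for 8 of the 10 members. The members, the 17 gene lists and the choice of spots were made with earlier results of these data known.

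The rule for named genes covered all members, list genes by place in the list or at least 2-fold apart, and chemokines at least 2-fold apart. It also covered the 5 genes nearest to Cxcl13 among those with an established symbol whose probes went the same way. Other genes named were chosen after their values were seen. No test was run with 1 tumour a side, and precision is limited by having 2 arrays. Calculations were tested on simulated data. Software was Python 3.11.15 (numpy 2.4.6, pandas 2.3.3, statsmodels 0.14.6) and R 4.3.3 (limma 3.58.1).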

Additional observations from a re-analysis of the deposited data

How the results depend on the processing

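Cxcl13 was higher in tumour 1 in the 10 alternatives that kept its probe, at 4.92 to 5.16, except under normexp (3.28), which adds an offset of 50 to both signals. All 10 reread the same spot, chosen for its difference, so their agreement is not independent support. The level of Cxcl13 was -5.17 without tumour 1 and -0.21 without tumour 2. Of the 10 members, 4 were detected, but 5 with all unflagged spots, 2 in the lower rows only, 6 with the positive and significant call, 7 with no filter on dim probes and 1 among the brighter probes, where Cxcl13 dropped out. The 539 genes past 2-fold towards tumour 1 and the 361 towards tumour 2 became 1083 and 866 with all unflagged spots, 266 and 153 in the lower rows, 150 and 172 under normexp, 807 and 261 without scaling, 993 and 645 with the positive and significant call, 1315 and 913 with no filter and 84 and 107 among the brighter probes. The causes were not tested. No paired analysis was possible because both tumours belong to 1 group. Signal over background limits Cxcr5, Cr2 and Lta, which have no measured difference; without the filter on dim probes they gave 0.37, -0.86 and 0.79.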

Other observations

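Of 7 keratinocyte genes, which mark epidermis, 2 were lower in tumour 1 and 1 was well above background in tumour 1 alone. The basal keratins Krt5 (-5.21 in tumour 1 against -1.66 in tumour 2, differing by -3.55) and Krt14 (-4.26 in tumour 1 against -0.62 in tumour 2, differing by -3.64) were the 2 keratinocyte markers of 7 detected on both arrays. Krt1, a keratin of the layers above, was well above background in tumour 1 alone and at least 2.96-fold higher there, with measured levels of -4.63 in tumour 1 and -8.49 in tumour 2. The bound uses the lowest level called on array 2, which is above the measured one. Krt10 was called in tumour 2 alone, at -6.29 in tumour 1 and -5.76 in tumour 2, and differed by 0.07 with all unflagged spots. Dsg3 and Trp63 were above background on neither array, and Krt15 had no spot away from flags.

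All 10 endothelial markers were detected on both arrays, 8 of them higher in tumour 1, with a median difference of 0.35 and Emcn, a sialomucin of capillaries and veins, at 0.97. The MHC class II gene H2-DMb2, a chain of the molecule that loads peptides onto class II, was well above background in tumour 1 alone. Its measured levels were -5.16 in tumour 1 and -5.91 in tumour 2, 1.68-fold apart. Unlike for Krt1, this is the measured difference of 2 dim signals and no lower bound. Ccl25, a chemokine of thymus and gut, had 3 detected probes with differences between -0.08 and 1.24 and a median of 0.11.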
